A study of Mus musculus with 20 samples.

Results

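Globins and other genes of red blood cells were followed in single pairs of XY mouse gonads at embryonic day 11.5, as a measure of the blood that each dissected gonad pair carried. The 8 genes were listed by symbol: the globins Hba-a1, Hba-x, Hbb-y and Hbb-bh1, the heme enzyme gene Alas2, the transcription factor genes Gata1 and Klf1, and the iron uptake gene Tfrc. All 8 were found, on 10 probes, among 27670 genes or names on the array. The 4 groups were (B6x129S1)F1 and its reciprocal, (129S1xB6)F1, and the inbred strains C57BL/6J and 129S1/SvImJ, with 5 gonad pairs each, with no transgene or treatment named for any of them. Embryos had 17 to 21 tail somites, the gonads were parted from the mesonephroi, and 1 gonad pair was labelled with Cy5 per array. Every array carried the same pool in Cy3. It came from matings of Sox9-ECFP (C57BL/6J) with CD-1 mice and joined 4 XY and 3 XX gonad pairs to 4 XY embryos and 2 XX embryos, taken whole. A value below is the log2 ratio of gonad over that pool, so 0 means a signal equal to the pool and 1 means 2 times the pool. The submitters state that each genotype was drawn from several litters, and letters in the pair names (C2, L1, H4) are theirs.

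At this stage the mouse embryo is supplied by primitive red cells, made in the yolk sac, which circulate while still nucleated and carry embryonic globin chains. Hba-x encodes the embryonic alpha-like (zeta) chain, and Hbb-y and Hbb-bh1 encode embryonic beta-like chains, while Hba-a1 encodes the adult alpha chain that primitive cells also make. Gata1 and Klf1 are the transcription factors that switch on globin and heme genes in these cells, Alas2 carries out the first step of their heme synthesis, and Tfrc, the transferrin receptor, brings iron into red cell precursors and into dividing cells in general.

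The probes of the globins are shown because closely related globin genes can share a probe's target. The 60-base sequences below come from the array files and run 5′ to 3′. The pair for Hba-a1 overlapped by 30 bases, and capitals mark the 3 bases of that overlap that differ (T7C, C19T and C22T, counted from the first overlapping base, with the base of A_52_P278538 first). The pairs for Hbb-bh1 (40 bases) and for the adult beta-globin named Hbb-b1 in the files (29 bases) overlapped without a difference, and capitals mark that overlap. The accession of the Hbb-b1 probes belongs to Hbb-bt in the current gene table. The sequence of another Hbb-b1 probe, A_52_P213909, is not shown, although it is the only one of them with a called strain difference below.
Hba-a1 A_52_P278538: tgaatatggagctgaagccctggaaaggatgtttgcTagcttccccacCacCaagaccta
Hba-a1 A_52_P208681: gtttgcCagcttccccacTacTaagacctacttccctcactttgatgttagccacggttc
Hba-x A_51_P204053: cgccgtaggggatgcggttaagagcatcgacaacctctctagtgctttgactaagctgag
Hbb-y A_51_P350058: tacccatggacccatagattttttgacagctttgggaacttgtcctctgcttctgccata
Hbb-bh1 A_52_P305876: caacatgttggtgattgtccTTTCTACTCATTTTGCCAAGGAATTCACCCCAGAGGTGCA
Hbb-bh1 A_51_P179672: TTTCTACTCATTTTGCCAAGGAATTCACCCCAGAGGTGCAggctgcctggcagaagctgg
Hbb-b1 A_52_P260346: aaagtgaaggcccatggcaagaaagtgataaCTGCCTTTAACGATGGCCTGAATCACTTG
Hbb-b1 A_51_P374476: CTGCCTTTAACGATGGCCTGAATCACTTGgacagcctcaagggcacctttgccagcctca
Hbb-b1 A_51_P374468: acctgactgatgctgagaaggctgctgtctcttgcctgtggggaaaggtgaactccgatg
Mouse alpha-globin is made from near-identical copies, so the signal of the Hba-a1 probes may hold more than one gene.

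The promoters of the members with an entry in the table are shown so that members that varied together can be compared with Tfrc, as the 120 bases before the RefSeq start site (GRCm38.p6), in the direction of the gene. Capitals mark matches, on either strand, of the GATA factor motif GATAA, of the Klf1-type motif CACCC, of the CCAAT box and of the TATA box core TATAA; matches of different motifs did not overlap in these windows.
Hba-a1, chr11:32283552-32283671, plus strand: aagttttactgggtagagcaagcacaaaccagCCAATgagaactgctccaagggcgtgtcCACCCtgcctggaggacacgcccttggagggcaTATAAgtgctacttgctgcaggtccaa
Hba-x, chr11:32276480-32276599, plus strand: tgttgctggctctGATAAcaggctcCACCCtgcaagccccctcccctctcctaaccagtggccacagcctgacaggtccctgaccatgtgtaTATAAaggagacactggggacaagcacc
Hbb-y, chr7:103853208-103853327, minus strand: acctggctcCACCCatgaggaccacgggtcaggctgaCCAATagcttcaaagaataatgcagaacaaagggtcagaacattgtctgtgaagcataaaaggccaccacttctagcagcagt
Alas2, chrX:150547297-150547416, plus strand: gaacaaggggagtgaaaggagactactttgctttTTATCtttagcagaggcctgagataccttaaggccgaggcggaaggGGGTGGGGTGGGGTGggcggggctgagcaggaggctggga
Gata1, chrX:7967911-7968030, minus strand: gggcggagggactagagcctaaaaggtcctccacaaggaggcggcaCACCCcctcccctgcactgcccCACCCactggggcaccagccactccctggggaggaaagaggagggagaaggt
Klf1, chr8:84901862-84901981, plus strand: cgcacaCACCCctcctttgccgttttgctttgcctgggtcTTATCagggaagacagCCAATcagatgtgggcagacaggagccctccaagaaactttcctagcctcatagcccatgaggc
Tfrc first start site, chr16:32608776-32608895, plus strand: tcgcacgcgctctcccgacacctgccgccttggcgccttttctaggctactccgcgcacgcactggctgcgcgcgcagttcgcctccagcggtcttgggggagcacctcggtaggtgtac
Tfrc second start site, chr16:32609002-32609121, plus strand: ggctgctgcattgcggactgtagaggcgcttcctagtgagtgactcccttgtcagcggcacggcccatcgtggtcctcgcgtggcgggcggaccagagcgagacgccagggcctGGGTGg
CACCC stood in such a window of all 7 members with an entry in the table, against 31.7% of all 32851 windows, with Tfrc holding it only before the second of its 2 listed start sites. The sequence GATAA was found for Hba-x, Alas2 and Klf1 (10.5% of all windows), CCAAT for Hba-a1, Hbb-y and Klf1 (21.3%), and TATAA for Hba-a1 and Hba-x (11.8%). A match is a description of these letters only.

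Over the 20 gonad pairs, the ratios of the adult alpha-globin gene and the embryonic globin genes spanned 5.95-fold (Hbb-y) to 8.18-fold (Hbb-bh1). Per array, 77.9% to 88.0% of gene probes were well above background. All 10 member probes were so on all 20 arrays, and none of their spots was saturated or marked as an outlier. The lowest share, 77.9%, was that of M6 of (129S1xB6)F1, which is the highest array for most members below. M6 also had the lowest median net Cy5 intensity, 87.3, in a range up to 207 over the 20 arrays. Each array correlated with the others at a mean r of 0.757 to 0.855. Genes that mark the gonad somatic cells averaged 1.95, 2.08, 2.20 and 1.91 log2 above the pool in (B6x129S1)F1, (129S1xB6)F1, C57BL/6J and 129S1/SvImJ pairs. Mesonephric markers averaged -0.19, -0.15, -0.15 and -0.20 in the same groups. These are means over each list, and single genes departed from them. The gonad marker Sox9 averaged -0.26 in 129S1/SvImJ, and the mesonephric markers Pax8 and Lhx1 averaged 1.19 and -1.51 in C57BL/6J. In bulk tissue, fewer red cells and less RNA per red cell cannot be told apart.

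Hba-a1, the adult alpha chain gene, had log2 ratios of 0.79 (C2), -0.39 (C3), 0.22 (C4), 0.71 (E1) and 0.99 (F2) in (B6x129S1)F1 and of -0.09 (L1), -0.51 (L2), 1.01 (L4), 0.26 (M3) and 2.07 (M6) in (129S1xB6)F1. In C57BL/6J they were 0.94 (H1), 0.01 (H2), 0.38 (H3), 1.29 (H4) and -0.07 (K2), and in 129S1/SvImJ they were -0.14 (A3), 0.71 (A4), 0.07 (A6), 1.45 (D4) and -0.04 (G3). M6 was the highest array and L2 the lowest, both of (129S1xB6)F1, and all 4 groups overlapped. From L2 to M6 the ratio spanned 5.96-fold. The second Hba-a1 probe, with its 3 different bases, gave the same picture (r = 0.994 over 20 arrays; the 2 probes differed by -0.11 to 0.18 on any array).

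Hba-x, the embryonic zeta chain gene, had log2 ratios of 0.31 (C2), -0.96 (C3), -0.63 (C4), 0.09 (E1) and -0.12 (F2) in (B6x129S1)F1 and of -0.79 (L1), -1.32 (L2), 0.65 (L4), -0.17 (M3) and 1.22 (M6) in (129S1xB6)F1. In C57BL/6J the values were 0.13 (H1), -0.87 (H2), 0.01 (H3), 1.03 (H4) and -1.35 (K2), and in 129S1/SvImJ -0.96 (A3), -0.25 (A4), -0.97 (A6), 1.33 (D4) and -0.80 (G3). The highest array, D4 of 129S1/SvImJ, and the lowest, K2 of C57BL/6J, came from the inbred strains, and the groups overlapped throughout. Hba-a1 stood above Hba-x relative to the pool on all 20 arrays, by 0.12 log2 in D4 up to 1.28 log2 in K2.

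Hbb-y, an embryonic beta-like chain gene, had log2 ratios of -0.45 (C2), -1.01 (C3), -0.28 (C4), 0.25 (E1) and 0.63 (F2) in (B6x129S1)F1 and of -0.96 (L1), -0.82 (L2), -0.07 (L4), -0.86 (M3) and 1.57 (M6) in (129S1xB6)F1. In C57BL/6J they were 0.59 (H1), -0.09 (H2), 0.33 (H3), 0.35 (H4) and -0.36 (K2), against -0.92 (A3), -0.23 (A4), -1.002 (A6), -0.17 (D4) and -0.93 (G3) in 129S1/SvImJ. All 129S1/SvImJ pairs were below the pool, and 4 of 5 C57BL/6J pairs were above the highest of them, while K2 fell within their range. Hbb-y was the member with the largest strain difference.

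Hbb-bh1, the other embryonic beta-like chain gene, had log2 ratios of -0.39 (C2), -0.63 (C3), -0.40 (C4), 0.69 (E1) and 0.64 (F2) in (B6x129S1)F1 and of -1.04 (L1), -0.79 (L2), 1.00 (L4), -0.29 (M3) and 1.99 (M6) in (129S1xB6)F1. It had 0.54 (H1), -0.06 (H2), 0.45 (H3), 1.10 (H4) and -0.25 (K2) in C57BL/6J, against -0.78 (A3), 0.18 (A4), -0.67 (A6), -0.18 (D4) and 0.47 (G3) in 129S1/SvImJ. The groups overlapped, and the span from L1 to M6 was 8.18-fold, the widest of the 8 genes. The overlapping second probe followed the first at r = 0.993. The balance between the 2 embryonic beta-like genes was not constant: Hbb-y minus Hbb-bh1 ran from 0.12 log2 in C4 to -1.39 log2 in G3.

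Alas2, the red cell form of the first heme enzyme, had log2 ratios of 0.50 (C2), -0.10 (C3), 0.41 (C4), 0.99 (E1) and 1.06 (F2) in (B6x129S1)F1 and of -0.35 (L1), -0.24 (L2), 0.60 (L4), 0.23 (M3) and 2.19 (M6) in (129S1xB6)F1. The values were 0.98 (H1), 0.22 (H2), 0.59 (H3), 1.04 (H4) and 0.03 (K2) in C57BL/6J and 0.52 (A3), 0.96 (A4), 0.27 (A6), 0.94 (D4) and 0.19 (G3) in 129S1/SvImJ. M6 was again the highest and L1 the lowest, and the groups overlapped throughout.

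Gata1, the master transcription factor of red cells, varied least. Its ratios were -0.33 (C2), -0.37 (C3), -0.23 (C4), 0.33 (E1) and 0.15 (F2) in (B6x129S1)F1 and -0.51 (L1), -0.25 (L2), -0.01 (L4), -0.08 (M3) and 0.97 (M6) in (129S1xB6)F1. They were 0.20 (H1), 0.07 (H2), 0.20 (H3), 0.36 (H4) and -0.12 (K2) in C57BL/6J, against -0.23 (A3), 0.11 (A4), -0.31 (A6), -0.20 (D4) and 0.01 (G3) in 129S1/SvImJ. The groups overlapped, and M6 and H4 were the highest arrays. The Gata1 probe was the dimmest of the members (mean log2 Cy5 9.79, against 17.7 to 18.4 for the globins). It averaged 10 spots, as did that of Tfrc. The part of signal and spot number in the small spread of Gata1 was not tested.

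Klf1, which activates the adult and embryonic beta-like globin genes, had log2 ratios of -0.30 (C2), -1.34 (C3), -1.30 (C4), -0.02 (E1) and -0.10 (F2) in (B6x129S1)F1 and of -1.08 (L1), -1.07 (L2), 0.02 (L4), -0.68 (M3) and 1.40 (M6) in (129S1xB6)F1. In C57BL/6J it had -0.52 (H1), -1.57 (H2), -0.87 (H3), -0.53 (H4) and -1.20 (K2), against -0.45 (A3), 0.01 (A4), -0.92 (A6), 0.37 (D4) and -0.35 (G3) in 129S1/SvImJ. Here C57BL/6J lay low, the opposite of Hbb-y, but A6 of 129S1/SvImJ fell within its range.

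Tfrc had log2 ratios of -2.27 (C2), -0.08 (C3), -0.12 (C4), -0.21 (E1) and -0.48 (F2) in (B6x129S1)F1 and of -1.25 (L1), -0.52 (L2), -0.27 (L4), -0.46 (M3) and 0.54 (M6) in (129S1xB6)F1. It had -1.67 (H1), -0.77 (H2), -1.78 (H3), -0.50 (H4) and -0.12 (K2) in C57BL/6J, against -1.49 (A3), 0.01 (A4), -0.25 (A6), -1.38 (D4) and -0.24 (G3) in 129S1/SvImJ. Unlike the other members, Tfrc was lowest in C2. On that array Hba-a1, Hba-x and Klf1 lay above their group means (log2 deviations 0.325, 0.57 and 0.31). Hbb-y, Hbb-bh1, Alas2 and Gata1 lay below theirs (-0.28, -0.37, -0.07 and -0.25).

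**Figure D1:**
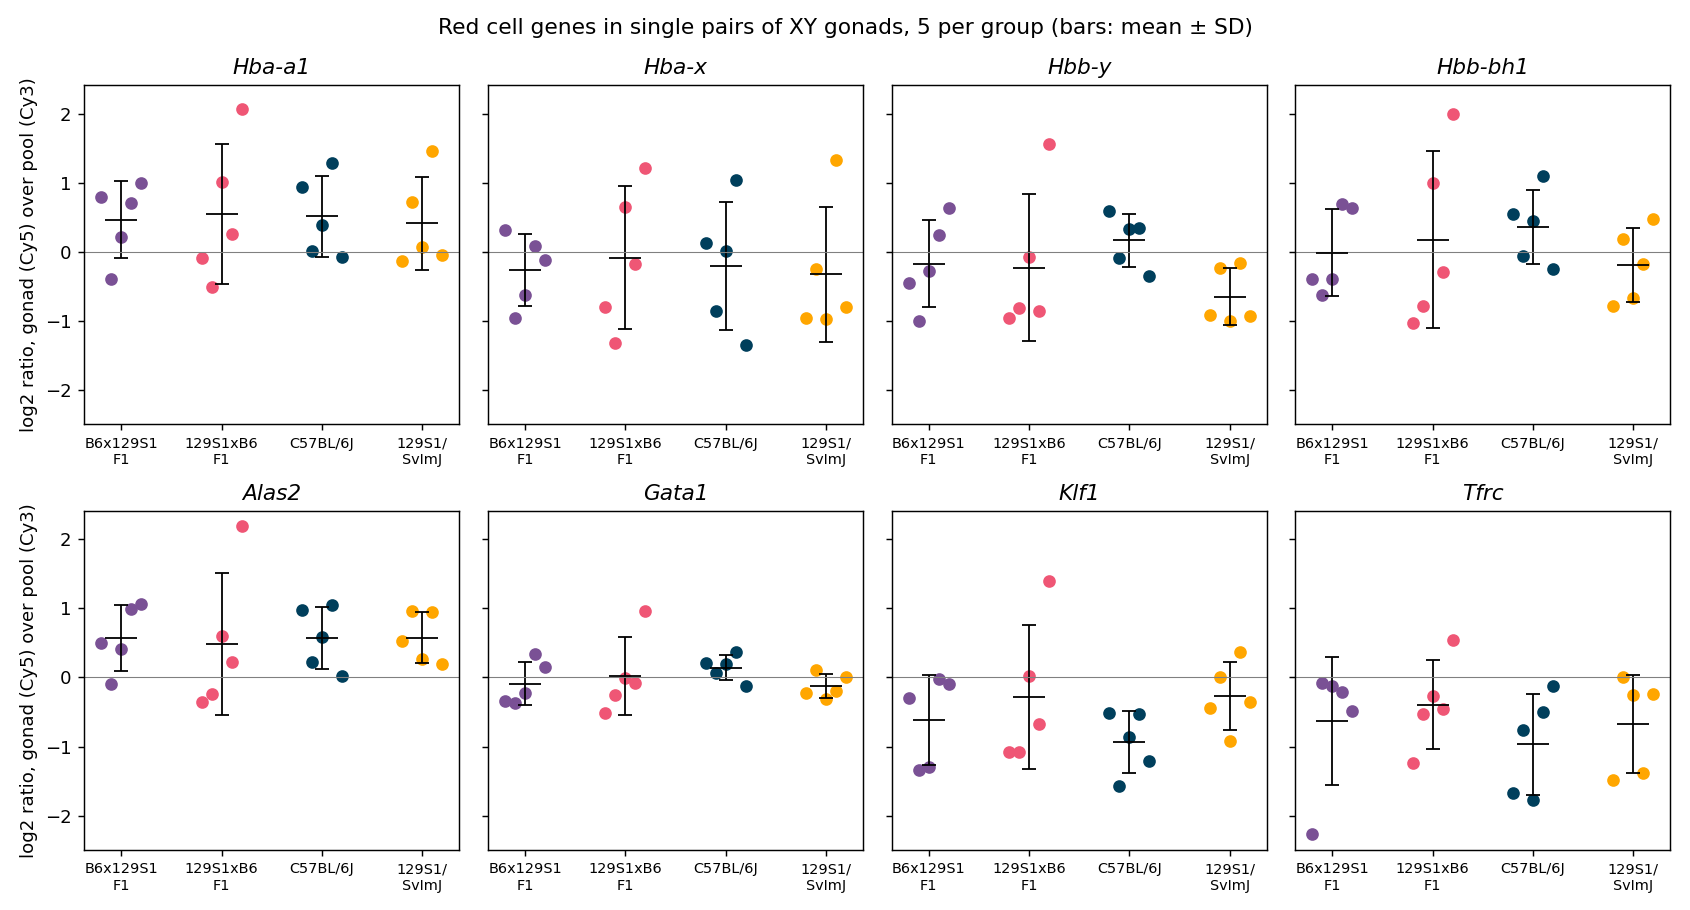
Log2 ratio of gonad over the reference pool (y axis) for the 8 red cell genes, brightest probe each, with 1 point per gonad pair in the 4 genotype groups (x axis, 5 pairs each); black bars are the mean and SD. The groups overlap in every panel, and the pair M6 of (129S1xB6)F1 is the highest point in 7 of the 8 panels.

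Averaged over 5 pairs, the groups of Hba-a1 lay close together: 0.46 ± 0.56 in (B6x129S1)F1, 0.55 ± 1.02 in (129S1xB6)F1, 0.51 ± 0.59 in C57BL/6J and 0.41 ± 0.67 in 129S1/SvImJ (log2 ratio, mean ± SD, n = 5 each). Hba-x averaged -0.26 ± 0.52, -0.08 ± 1.03, -0.21 ± 0.93 and -0.33 ± 0.97 in the same groups. For both genes these 4 means lay closer together than the SD of any group. Alas2 averaged 0.57 ± 0.47 in (B6x129S1)F1, 0.48 ± 1.03 in (129S1xB6)F1, 0.57 ± 0.45 in C57BL/6J and 0.58 ± 0.37 in 129S1/SvImJ. Hbb-y ordered the groups as C57BL/6J (0.16 ± 0.38), (B6x129S1)F1 (-0.17 ± 0.63), (129S1xB6)F1 (-0.23 ± 1.06) and 129S1/SvImJ (-0.65 ± 0.41), and no neighbours in that order differed by more than the larger of their SDs. Hbb-bh1 kept C57BL/6J highest (0.36 ± 0.53) and 129S1/SvImJ lowest (-0.20 ± 0.54), with (129S1xB6)F1 at 0.17 ± 1.28 and (B6x129S1)F1 at -0.02 ± 0.63 between them.

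The strain comparison addressed what sets the C57BL/6J gonad, known for its liability to XY sex reversal, apart from 129S1/SvImJ. None of the 8 genes passed the test in C57BL/6J minus 129S1/SvImJ: in the limma fit over all 20 arrays, 0 of 10 member probes had an adjusted p under 0.05, where 5.45% of all 35040 probes tested did, and 0 of 10 had an unadjusted p under 0.05. Hbb-y averaged 1.76-fold higher in C57BL/6J (log2 difference 0.81 ± 0.40 SE, 95% interval -0.01 to 1.64, adjusted p = 0.345 in limma). It was above 129S1/SvImJ within each of the 4 slides that held both strains, by 0.14 to 1.27 log2. Klf1 differed by -0.67 ± 0.41 (95% interval -1.52 to 0.18, adjusted p = 0.499 in limma), with C57BL/6J below 129S1/SvImJ on each of those 4 slides, by -1.58 to -0.17 log2. Neither value passed the test. For Hbb-bh1 the difference was 0.55 ± 0.47, for Gata1 0.27 ± 0.21 and for Tfrc -0.30 ± 0.44. The smallest differences were those of Hba-x (0.12 ± 0.51), Hba-a1 (0.10 ± 0.43) and Alas2 (-0.01 ± 0.37). The spread between gonad pairs leaves these estimates wide: the interval for Hba-a1 runs from 0.579-fold to 1.99-fold and that for Hba-x from 0.516-fold to 2.29-fold.

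**Figure D2:**
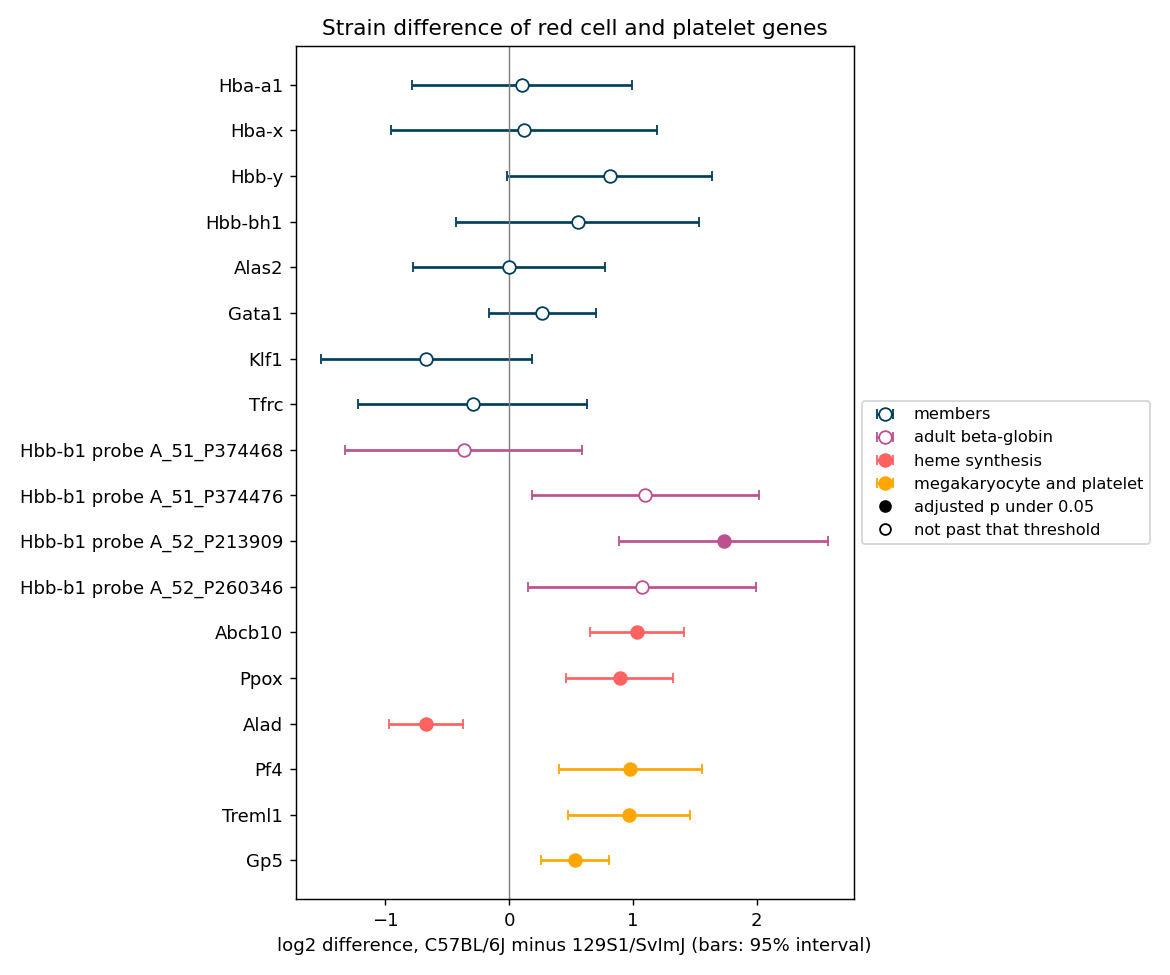
Log2 difference C57BL/6J minus 129S1/SvImJ (x axis, point and 95% interval) of the 8 members, of the 4 probes named Hbb-b1 and of the named heme synthesis and platelet genes; filled points had an adjusted p under 0.05. The members have wide intervals that all include 0, and 1 adult beta-globin probe and 6 list genes are filled.

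The reciprocal crosses carry the same autosomes and differ in the direction of the cross. With it they differ, among other things, in the strains that gave the X and the Y of these XY embryos. Alas2 and Gata1 lie on the X, so for them the cross also sets X alleles of different strains against each other. For (B6x129S1)F1 minus (129S1xB6)F1, 0 of 10 member probes were called and 0 had an unadjusted p under 0.05 (limma), against 0.00571% of all probes called. The differences ran from -0.33 ± 0.41 for Klf1 to 0.09 ± 0.37 for Alas2 (log2 ± SE, adjusted p = 1.00 for each). For Hba-a1 the SD was 0.56 among (B6x129S1)F1 pairs and 1.02 among (129S1xB6)F1 pairs, which include the high pair M6. Without M6 the cross difference of Hba-a1 was 0.29 and that of Hbb-y 0.51, and neither was called.

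The hybrids were also set against the middle of the inbred strains. In the mean of F1 groups minus the mean of inbred strains, 0 of 10 member probes were called and 0 had an unadjusted p under 0.05 (limma), against 0.24% of all probes called. Without a block for slide, the globins differed little from the mid-parent, with Hba-a1 at 0.04 ± 0.30, Hba-x at 0.10 ± 0.36, Hbb-y at 0.04 ± 0.28 and Hbb-bh1 at -0.0012 ± 0.33 (log2 ± SE). Tfrc had the largest value, 0.31 ± 0.31 (adjusted p = 0.789 in limma), and it was -0.50 with slide as a block. Slide 1 held only inbred and slide 5 only F1 arrays, and with that block Hbb-bh1 was -0.33 (adjusted p = 0.813 in limma), Gata1 -0.24, Alas2 -0.21 and Hba-x 0.16. Within the 3 slides that held all groups, Hbb-bh1 ran from -1.499 to 0.76. In the moderated F test over all groups, 0 of 10 member probes were called and 0 had an unadjusted p under 0.05 (limma), against 3.54% of all probes, and Hbb-y had the smallest adjusted p among members, 0.714.

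The spread between gonad pairs of one genotype was large for these genes. The residual SD within groups was 0.73 log2 for Hba-a1, 0.89 for Hba-x, 0.68 for Hbb-y and 0.81 for Hbb-bh1, where the median over all probes tested was 0.25. These values lay at the 98.2, 99.3, 97.5 and 98.9 percentiles of all tested probes. Klf1 (0.70), Alas2 (0.64) and Tfrc (0.76) lay at 97.8, 96.7 and 98.5, while Gata1 (0.35) lay at the 74.6 percentile. Leaving out M6, an alternative chosen after seeing the data, lowered Hbb-y to 0.47 (90.4 percentile), Alas2 to 0.43 (87.1) and Gata1 to 0.23 (43.1), but Hba-a1 (0.62, 96.3) and Hba-x (0.84, 99.1) still varied widely.

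Of the 8 genes, 7 went up and down together from one gonad pair to the next. After removal of the group means, all 21 pairs formed by Hba-a1, Hba-x, Hbb-y, Hbb-bh1, Alas2, Gata1 and Klf1 were correlated over the 20 arrays, with Pearson's r between 0.59 and 0.96 and Spearman's rho between 0.66 and 0.95 (permutation within groups, largest adjusted p = 0.0098 over the 28 pairs tested). Hbb-y and Alas2 were closest (r = 0.96, rho = 0.91), followed by Hba-a1 and Hba-x (r = 0.94, rho = 0.95), each with a permutation p of 1e-05, the smallest that 100000 permutations can give, and an adjusted p of 4.67e-05. Hba-x and Gata1 were least alike among them (r = 0.59, rho = 0.66, permutation p = 0.00735, adjusted p = 0.0098). The members fall in families of one gene cluster (Hba-a1 with Hba-x, Hbb-y with Hbb-bh1). The closest partner of Hbb-bh1 was Gata1 (r = 0.92), while Klf1 and Alas2 (r = 0.87 each) and Hbb-y (r = 0.86) were nearly level. Whether these correlations differ from one another was not tested.

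The relation was computed again on fewer arrays and within slides. Without the 2 arrays farthest from the median, the 21 pairs had r between 0.60 and 0.93 and all 21 passed (permutation, largest adjusted p = 0.00804). Those 2 arrays were picked anew for each pair, from the values of its first-named gene alone. The arrays left out therefore differed between pairs. With slide means removed as well, r lay between 0.57 and 0.95 and again all 21 passed, although by Spearman's rho Hba-x and Gata1 did not (rho = 0.47, adjusted p = 0.0597, permutation). Without M6 the range was 0.47 to 0.94, and 20 of 21 passed, with Hba-x and Gata1 at an adjusted p of 0.0519 by permutation over 19 arrays.

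**Figure D3:**
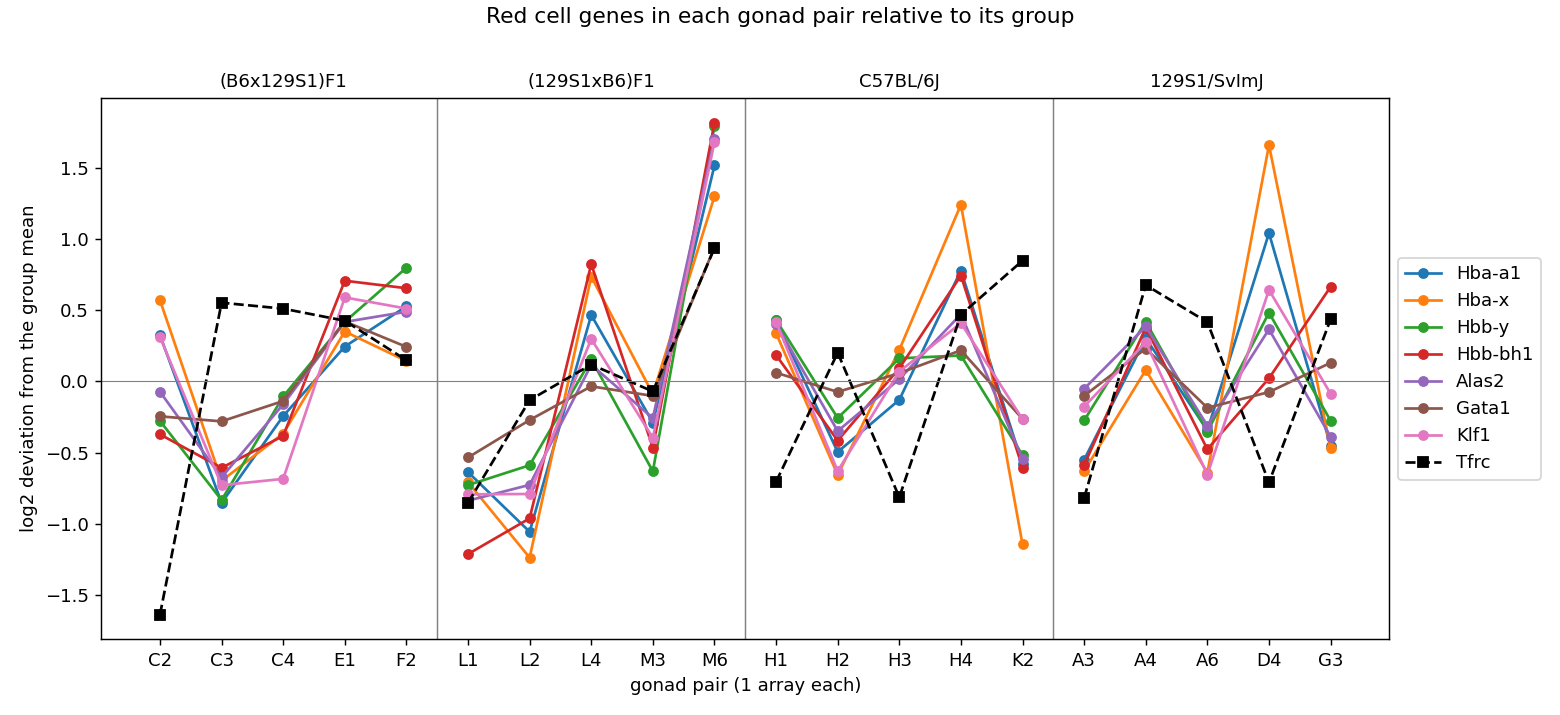
Log2 deviation of each gonad pair from the mean of its group (y axis) for the 8 genes, with the 20 pairs along the x axis in 4 groups of 5; lines only join the values of one gene and the pairs have no order. Of the 8 genes, 7 all lie above their group means in M6, F2 and E1 and below them in C3, L1, L2 and K2. These 7 part in some pairs, such as C2 and D4, and Tfrc (dashed, squares) follows another course.

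Tfrc did not move with the rest. Its correlations with the other 7 genes ran from -0.12 (Hba-x) to 0.43 (Gata1), and none passed (smallest adjusted p = 0.0887, permutation). The values of Tfrc are given by array slide. On slide 1 the 2 C57BL/6J and 2 129S1/SvImJ arrays lay between -1.78 and -1.38, and on slide 3 the arrays of all 4 groups lay between -0.52 and -0.08. Slide 4 held both C2 at -2.27 and L1 at -1.25 beside H4 at -0.50 and G3 at -0.24. The other 7 genes each had their lowest slide mean on slide 3, which held 1 pair of each group. Hba-a1 averaged -0.23 there, against slide means of 0.49 to 0.81 elsewhere, and Hba-x lay between -1.35 and -0.96 and Klf1 between -1.34 and -0.92. On slide 1, where Tfrc was low, Hba-a1 spanned -0.14 to 1.45. With slide means removed, the correlations of Tfrc rose to between 0.29 and 0.64 and 2 of its 7 passed: Hbb-bh1 (r = 0.64, rho = 0.73, adjusted p = 0.00628) and Gata1 (r = 0.56, rho = 0.54, adjusted p = 0.0309), both by permutation. The part of the slide in these values was not tested.

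**Figure D4:**
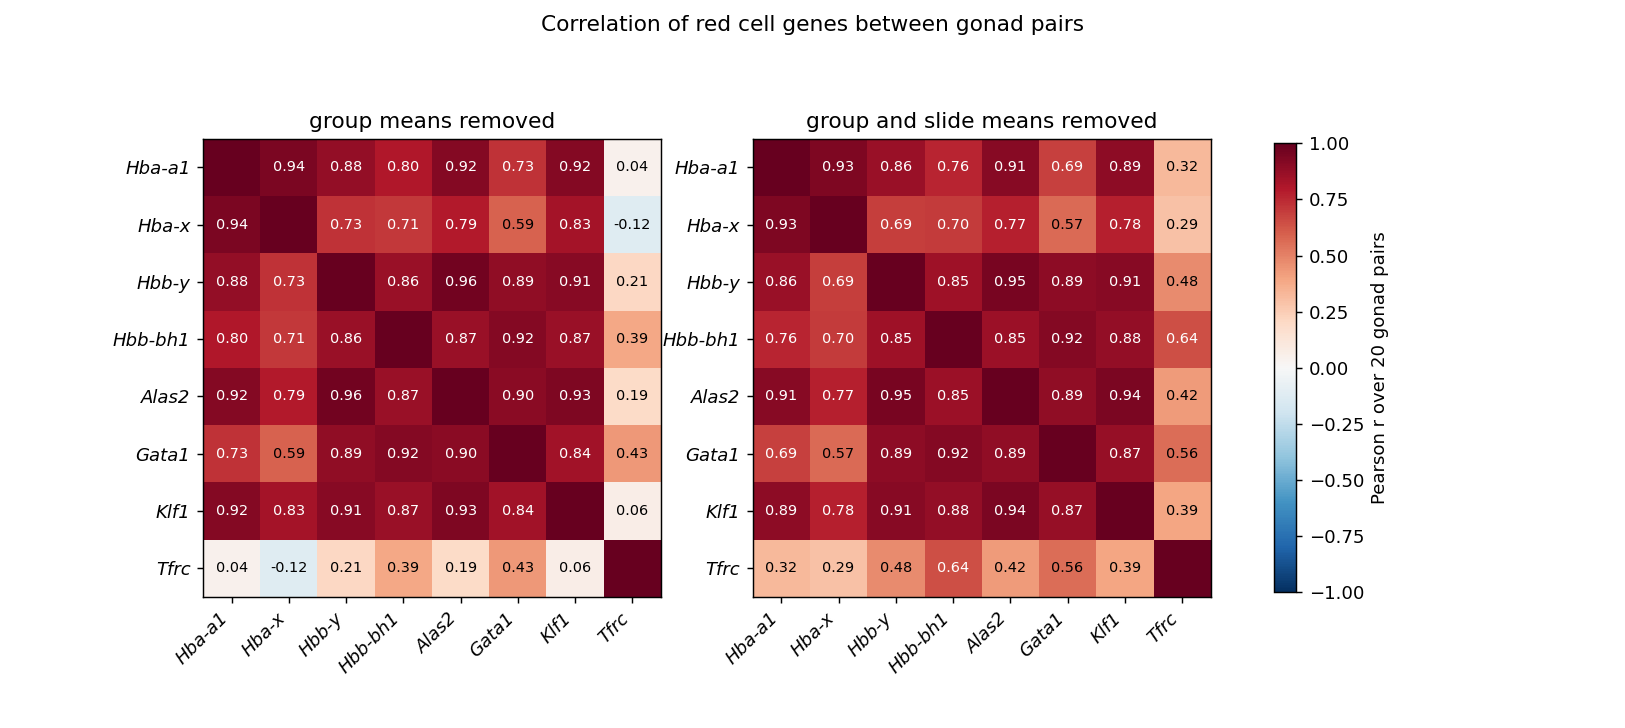
Pearson's r between members over 20 gonad pairs (colour and number), with group means removed on the left and group and slide means removed on the right. Apart from Tfrc, the genes correlate at 0.59 to 0.96 on the left and 0.57 to 0.95 on the right.

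**Figure D5:**
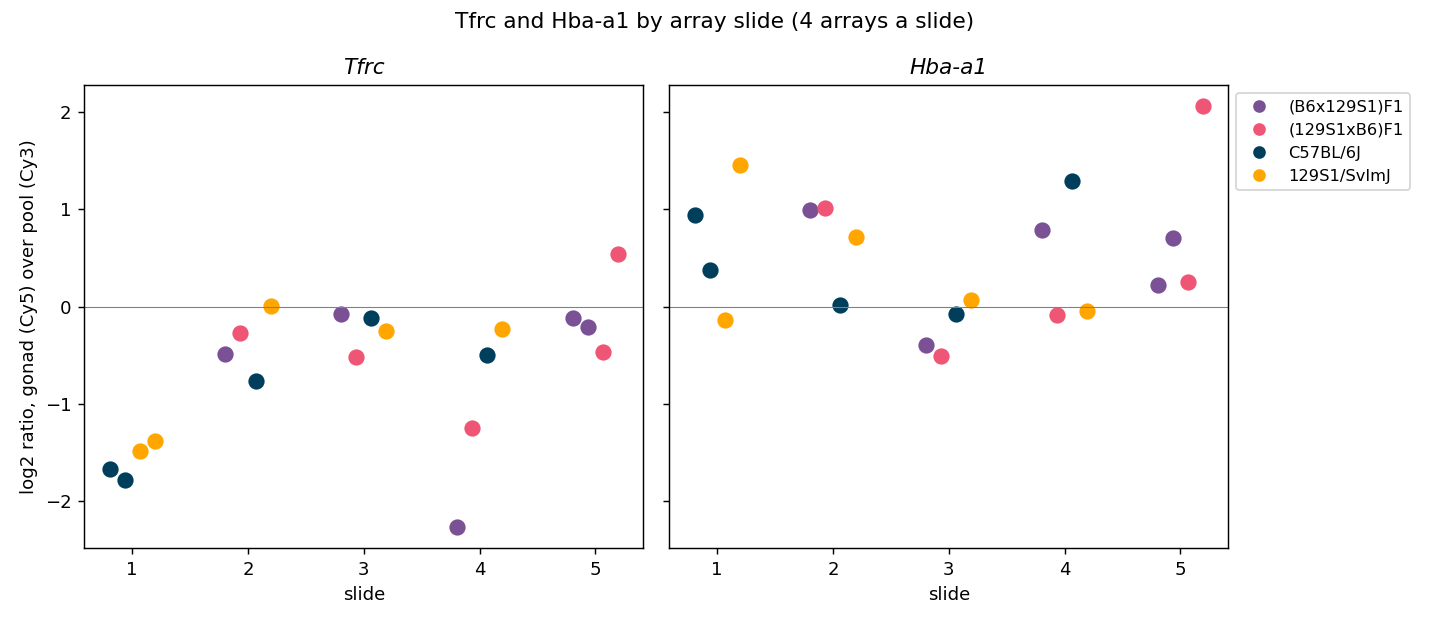
Log2 ratio over the pool (y axis) of Tfrc (left) and Hba-a1 (right) by array slide (x axis, 4 arrays a slide), coloured by genotype group. All 4 arrays of slide 1 are at or below -1.38 for Tfrc, while Hba-a1 spans -0.14 to 1.45 on that slide and is lowest on slide 3.

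Genes outside the 8 with the most similar course were mostly known red cell genes. As a description over 20 arrays that share labelling and slides, the mean deviation of Hba-x, Hbb-y and Hbb-bh1 correlated best with Ermap, a membrane protein of red cell precursors (r = 0.97), and with Kel, the Kell blood group protease (0.96). Next came Eraf, the name in the files for a chaperone of free alpha-globin (0.96), Car2, a carbonic anhydrase (0.96), and Slc4a1, the band 3 anion exchanger (0.95). Gfi1b, a repressor needed in red cell and platelet precursors (0.94), and Olfr1323, an olfactory receptor gene (0.93), followed. The others were Slc25a37, which carries iron into mitochondria (0.92), Trim10 (0.91), the membrane skeleton gene Ank1 (0.90) and the transcription factor gene Nfe2 (0.90). Of all 23850 genes tested, 0.57% exceeded 0.7.

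By gene group, the red cell membrane and skeleton list followed the embryonic globins most closely, with 11 of its 15 genes above r = 0.7 and a median of 0.84, against a median of -0.0011 over all genes. The other globins Hbq1b (0.86), Hbq1a (0.79) and Hbb-bt (0.74) did so too. Heme synthesis had a median r of 0.61 (2 of 10 above 0.7, among them Cpox at 0.78), and red cell enzymes had 0.59 (5 of 12). Among the erythropoietin and iron genes, the median was 0.38 and 5 of 13 exceeded 0.7. These included the erythropoietin receptor gene Epor (0.88) and Tfr2, the second transferrin receptor (0.85). Tfrc itself did not follow, and neither did other iron and heme handling genes of this list: Aco1 (0.02), Trf (-0.01), Hmox1 (-0.26) and Ireb2 (-0.27). The erythroid transcription factors ranged widely around a median of 0.30, with 4 of 13 above 0.7: Gfi1b, Nfe2, Lyl1 (0.84) and Tal1 (0.84). Others lay in between, among them E2f2 (0.69), Zfpm1 (0.68) and Ldb1 (0.07). Gata2 (-0.07), Lmo2 (-0.09), Myb (-0.17) and Bcl11a (-0.19) were near 0 or below. Markers of other cells had medians of 0.62 (platelet, 1 of 8 above 0.7), 0.28 (macrophage, 0 of 13), 0.21 (gonad somatic, 0 of 9), 0.17 (germ cell, 0 of 7), 0.08 (endothelial, 0 of 13) and 0.01 (mesonephros, 0 of 6).

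The adult beta-globin probes gave values that depended on the probe. All 4 probes named Hbb-b1 are described here, which goes beyond the brightest one and was decided after seeing their values. Probe A_52_P213909 had 1.70 (H1), 1.06 (H2), 1.15 (H3), 1.96 (H4) and 1.32 (K2) in C57BL/6J, against -0.51 (A3), 0.05 (A4), -0.05 (A6), 0.39 (D4) and -1.35 (G3) in 129S1/SvImJ. The strains did not overlap on this probe, which was 3.32-fold higher in C57BL/6J (log2 difference 1.73 ± 0.40 SE, limma adjusted p = 0.012) and was called in all 20 fits that left out 1 array. The overlapping probes A_51_P374476 and A_52_P260346 were higher in C57BL/6J by 1.10 ± 0.44 and 1.07 ± 0.44, without passing the test (adjusted p = 0.199 and 0.219). Probe A_51_P374468 differed the other way, by -0.37 ± 0.46, with 1.49 (H1), 0.87 (H2), 0.65 (H3), 1.36 (H4) and -0.14 (K2) in C57BL/6J, against 1.11 (A3), 1.27 (A4), 1.40 (A6), 2.09 (D4) and 0.18 (G3) in 129S1/SvImJ. Mouse strains are known to carry different beta-globin haplotypes, and whether bases under these probes differ between the strains was not tested.

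Among the other red cell genes, heme synthesis held the strain differences that passed the test. In C57BL/6J minus 129S1/SvImJ, 3 of 10 heme genes were called, 2 higher and 1 lower, where 5.4% of all genes were called (3.16% higher and 2.23% lower). Abcb10, a transporter of the inner mitochondrial membrane needed for heme in red cells, had 0.25 (H1), 0.06 (H2), 0.12 (H3), 0.84 (H4) and -0.21 (K2) in C57BL/6J, against -0.63 (A3), -0.86 (A4), -0.75 (A6), -1.03 (D4) and -0.85 (G3) in 129S1/SvImJ. Its groups did not overlap, and it was 2.05-fold higher in C57BL/6J (1.03 ± 0.18, limma adjusted p = 0.000936). The Abcb10 difference was 0.44 without background subtraction, where it was still called. Ppox, the enzyme of the step before the last, was 1.85-fold higher (0.89 ± 0.21, adjusted p = 0.0111 in limma), and Alad, the enzyme after Alas2, was lower in C57BL/6J (-0.67 ± 0.14, adjusted p = 0.00593 in limma). The Ppox call was lost with the letter of the sample name as a random block (adjusted p = 0.0696) and in a fit of the inbred strains alone (adjusted p = 0.0905). The median difference of the list was 0.02 log2, beside 0.01 over all genes, and Alas2 itself differed by -0.01. The F test called 2 of the 10, Abcb10 and Alad, where 3.57% of all genes were called.

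No gene of the other red cell lists was called in any of the 4 comparisons: 0 of 3 other globins by brightest probe, 0 of 15 membrane and skeleton genes, 0 of 13 transcription factors, 0 of 13 erythropoietin and iron genes and 0 of 12 enzymes. Over all genes, 5.4% were called between the strains, 0.00839% between the crosses, 0.264% in the F1 comparison and 3.57% in the F test. Counts of 0 in lists this short lie near those shares. In the reciprocal and the F1 comparison, 0 of 10 heme genes were called as well. Macrophage (0 of 13) and endothelial markers (0 of 13) had no call either, again near the shares over all genes. Of the gonad somatic markers, Emx2 was higher in C57BL/6J (1.04 ± 0.24, adjusted p = 0.0106 in limma, 0.0639 with arrays scaled alike), and of the mesonephric ones Lhx1 was lower (-0.61 ± 0.14, adjusted p = 0.00952 in limma). Ddx4, a germ cell marker, was higher in the F1 groups than in the inbred strains (1.20 ± 0.24, adjusted p = 0.0339 in limma) and was not called with slide as a block (adjusted p = 0.336), and only in 7 of the 20 fits that left out 1 array.

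Platelet genes mark another lineage carried in blood. All 8 markers of megakaryocytes and platelets had higher means in C57BL/6J, with a median difference of 0.74 log2 beside 0.01 over all genes, and 3 of 8 were called, all higher (3.16% of all genes). Pf4, platelet factor 4 (Cxcl4 in the files), had 0.13 (H1), 0.03 (H2), 0.19 (H3), 0.41 (H4) and -0.07 (K2) in C57BL/6J, against -0.53 (A3), -1.18 (A4), -1.60 (A6), -0.02 (D4) and -0.89 (G3) in 129S1/SvImJ. The groups overlapped only through K2 and D4, and Pf4 was 1.97-fold higher in C57BL/6J (0.98 ± 0.27, limma adjusted p = 0.0413). Treml1, a receptor of platelet granules, was 1.96-fold higher (0.97 ± 0.24, adjusted p = 0.0165 in limma), and Gp5, a subunit of the von Willebrand factor receptor, was 1.44-fold higher (0.53 ± 0.13, adjusted p = 0.0188 in limma). The Gp5 difference was 0.34 after normexp and loess and 0.16 without background subtraction. The list mean per array ran from 0.06 to 0.63 in C57BL/6J and from -0.70 to -0.27 in 129S1/SvImJ. These 3 calls depended on the processing: the count was 1 after normexp and loess, 1 in a fit of the inbred strains alone, 1 without H4 of C57BL/6J, and 0 with the letter as a random block. With 1 array left out at a time, Treml1 was called in 20 of 20 fits, Gp5 in 16 (not without A3, D4, H2 or H4) and Pf4 in 9, the largest adjusted p being 0.118 without A6 (limma). Macrophage markers had higher means in C57BL/6J for 10 of 13 genes, with a median difference of 0.35 log2, and their list mean per array ran from -0.11 to 0.51 in C57BL/6J and from -0.31 to 0.50 in 129S1/SvImJ; their part in the platelet values was not tested. Whether platelet signal differed from red cell signal between the strains was not tested.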

How the data were processed

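The deposited files were scanner output of 20 2-colour arrays, 1 gonad pair each. Per the file headers, the authors' processed Cy5 and Cy3 intensity values came from Agilent Feature Extraction 9.1.3.1 (protocol GE2-v5_91_0806), with spatial detrending and linear plus LOWESS dye normalization. The deposited log2 ratio values that the authors gave as processed values served as an alternative and correlated with the ratios used here at r = 0.935 to 0.960 per array. The genome build is not given in the sources used here.

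From the intensities, log2 of Cy5 over Cy3 was taken per spot, control spots were left out and spots of 1 probe were averaged. No dyes were swapped, so a level against the pool is open to a dye bias that all arrays share. Of 45018 spots, 43379 were gene spots, of 41174 probes, and 35040 probes well above background in at least 4 arrays of a group were tested. Probes were named by accession (22951), symbol (6659), synonym (3109) or, unmatched, by the name in the file (8455). The brightest probe stood for a gene (23850 genes). limma 3.58.1 in R 4.3.3, with version 1.17.8 of data.table, fitted 4 group means over all 20 arrays, with 16 residual degrees of freedom and a prior of 3.29, and p-values were adjusted by Benjamini-Hochberg over all probes, with 0.05 as threshold. The fit was checked on simulated data. Quantile normalization of the average intensity leaves log ratios as they are by construction, so it gave no other value. Correlations used deviations from group means and 100000 permutations within groups. Normalization, background, filter, slide, scan day, letter and each array in turn were varied. Arrays come with no counts, so their number limits the precision. Each gonad pair was on 1 array, and the main fit held no term for slide. The p-values therefore measure the spread between gonad pairs together with that between labellings, arrays and slides. Some pairs may be littermates.

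The members and lists were chosen with earlier results of these data known. The rule for naming took all probes of the members, the list genes called in any comparison or among the 3 with the smallest F test p of a list, and the 12 genes most like the embryonic globins. Some genes that the rule takes are not reported here. Of the 3 per list, those not called are given by count only. List genes named for their likeness beyond the 12 were picked after their values were seen. Probe sequences come from the deposited files, and promoters from RefSeq (GRCm38.p6).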

Additional observations from a re-analysis of the deposited data

Results flagged for a closer look

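Tfrc was at -2.27 (log2 ratio) in the pair C2 of (B6x129S1)F1, far below the other pairs of that group, the nearest of which was at -0.48. The gap was 0.816 of the group's range, above the critical value of 0.71 for 5 samples. Of 40 groups of 5 examined over the member probes, this was the only one so marked, and chance marks about 1 in 20. The array C2 was hybridised on slide 4, where L1 of (129S1xB6)F1 was also low for Tfrc (-1.25).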

How the results depend on the processing

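The count of member genes called stayed at 0 in every comparison, under all 14 alternatives for the strains and the crosses and 13 for the other comparisons, and with each of the 20 arrays left out. Some of these alternatives could not change a member's log ratios. Quantile normalization of the average intensity leaves them as they are, and leaving out flagged spots removed no member spot. The filters and the use of 1 probe per gene changed only which probes were fitted. The strain difference of Hbb-y stayed between 0.76 and 0.88 over the alternatives (smallest adjusted p = 0.0856, limma) and that of Klf1 between -0.72 and -0.37. Small differences changed sign. Between strains, Hba-x was -0.044 with the letter as a random block, and Alas2 was 0.031 after normexp and loess, 0.0059 without background correction and 0.021 in the deposited ratios. For F1 groups against strains, Hba-a1 was -0.084 and Hbb-y -0.0091 with arrays scaled alike, an alternative chosen after seeing the data, and -0.029 and -0.070 with slide or scan day as a block, where Tfrc was -0.50. There Hbb-bh1 was 0.017 without background correction, and with the letter as a block Hbb-bh1 was 0.061 and Alas2 0.023. With 1 array left out, strain differences ran from -0.095 to 0.36 (Hba-a1), -0.19 to 0.54 (Hba-x) and -0.12 to 0.13 (Alas2). Cross differences ran from -0.35 to 0.29 (Hba-a1), -0.49 to 0.15 (Hba-x), -0.14 to 0.51 (Hbb-y), -0.50 to 0.26 (Hbb-bh1), -0.12 to 0.52 (Alas2), -0.25 to 0.12 (Gata1), -0.53 to 0.092 (Klf1) and -0.45 to 0.17 (Tfrc). F1 differences ran from -0.15 to 0.18 (Hba-a1), -0.067 to 0.30 (Hba-x), -0.18 to 0.15 (Hbb-y), -0.23 to 0.15 (Hbb-bh1), -0.26 to 0.060 (Alas2), -0.16 to 0.025 (Gata1) and -0.055 to 0.26 (Klf1). The cause was not tested. Over all probes, the strain count of 1910 was 1222 with the letter as a block, and the F test count of 1241 was 719. The cross count of 2 was 0 after normexp, 1 with probes well above background on all 20 arrays and 5 without E1. The F1 count of 84 was 21 without background correction, 49 with arrays scaled alike, 31 with slide, 34 with scan day, 38 with the letter, 54 without M6 and 51 without C4. No paired analysis was possible because the names give no replicate number shared across groups; the array slide, which several groups share, was used as a block instead.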
